A study of Drosophila melanogaster with 5 samples.

Results

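The Hsp70 family of chaperones binds exposed hydrophobic stretches of unfolded proteins and releases them in a cycle driven by ATP. J-domain proteins deliver clients and stimulate ATP hydrolysis, nucleotide exchange factors reset the cycle, and each compartment has its own family member. The cognate (Hsc70) genes of Drosophila are expressed without heat shock. Hsc70-4 encodes the main cytosolic chaperone, which also strips clathrin from endocytic vesicles at synapses. Hsc70-3 encodes BiP of the endoplasmic reticulum (ER), Hsc70-5 encodes the mitochondrial family member, and Hsc70Cb encodes an Hsp110-type protein that acts as a nucleotide exchange factor for Hsp70. Hsc70-1 and Hsc70-2 are further members of the cognate family.

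The 6 genes were taken by symbol from the 16463 genes listed in both of the tables of group means, and all 6 were among the 13791 genes with values above 0 in both groups. They were chosen with the contrast between knockdown and control already known, so their ratios are given as a description and without a test. RNA-seq was performed on the CNS of larvae of the third instar at 84 h after egg laying, with about 15 CNS pooled per sample. In the 2 IP3R knockdown samples the pan-neuronal driver ElavC155GAL4 expressed UAS-dsitpr, an RNAi construct against the IP3 receptor gene, together with UAS-dicer. The 3 control samples carried UAS-dsitpr and UAS-dicer without a driver, so both transgenes are shared by all samples and the driver is not. The labels name elavC155 as the driver, as does another passage of the study on this experiment, whereas its methods name VGN6341GAL4, and the data were not used to decide between them. The methods of the study give either sex for larvae of its pupariation assay and no sex for these libraries.

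Whole reads per library could be solved from the digits of the deposited group means, and the libraries are called knockdown a and b and control a, b and c. The letters only name the libraries, which cannot be tied to individual samples, and the spread between libraries may be partly technical. The solved reads summed to 13.5 and 10.4 M in the knockdown libraries and to 14.5, 14.0 and 10.4 M in the control libraries. Knockdown b and control c were thus the shallower libraries of their groups. Itp-r83A, the IP3 receptor gene, had 2032 and 1995 normalized reads (reads divided by the size factor of the library) in knockdown CNS, against 3572, 3181 and 2436 in control CNS, and the groups did not overlap. The genotype was also visible in Dcr-2, at 6250 and 6771 normalized reads in knockdown and 2113, 2457 and 1655 in control CNS. The white gene w, which marks many transgenes, had 2955 and 3584 normalized reads in knockdown and 375, 382 and 343 in control CNS. Of the neuronal markers all 10 were detected, and 6 of the 10 were lower by at least 25%, beside 16.7% of all genes. Among them elav had a log2 FPKM ratio of -0.77 and a ratio of normalized reads of 0.760 without knockdown a. Glial markers were all detected and none of the 8 differed by at least 25%. The glial genes held 0.42 to 1.56 reads per base of exon, and the 6 lower neuronal genes held 0.19 to 0.60. Fewer genes passed this threshold at high read density, as given below, so the counts of these lists are not set against each other.

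In the knockdown CNS, Hsc70-2 was present at 2.40% of its control FPKM, whereas each of the other 5 cognate genes lay within a few percent of the control FPKM. FPKM, in which fragments are scaled to transcript length and library depth, is the unit in which levels of different genes were compared. The FPKM of Hsc70-2 was 1.31 in knockdown and 54.5 in control CNS, a log2 ratio of -5.38. The ratios of the other 5 genes were between 0.981 for Hsc70-3 and 1.03 for Hsc70-1. Relative to control, a gene was counted as lower at a ratio of at most 0.75 and as higher when at least 25% above control, in both the FPKM and the mean normalized counts. This is the size of change that the methods of the study required. Of the 6 genes 1 was lower and 0 were higher, and in this contrast 16.7% of all 13791 genes were lower and 16.9% were higher. At a 2-fold threshold the count was again 1 lower and 0 higher, beside 6.59% lower and 5.74% higher of all genes. The members were selected on the same contrast, so nothing is read from these shares. Only 52 genes had a lower log2 FPKM ratio than Hsc70-2, and 21 of these had a control FPKM at least as high as its own.

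**Figure D1:**
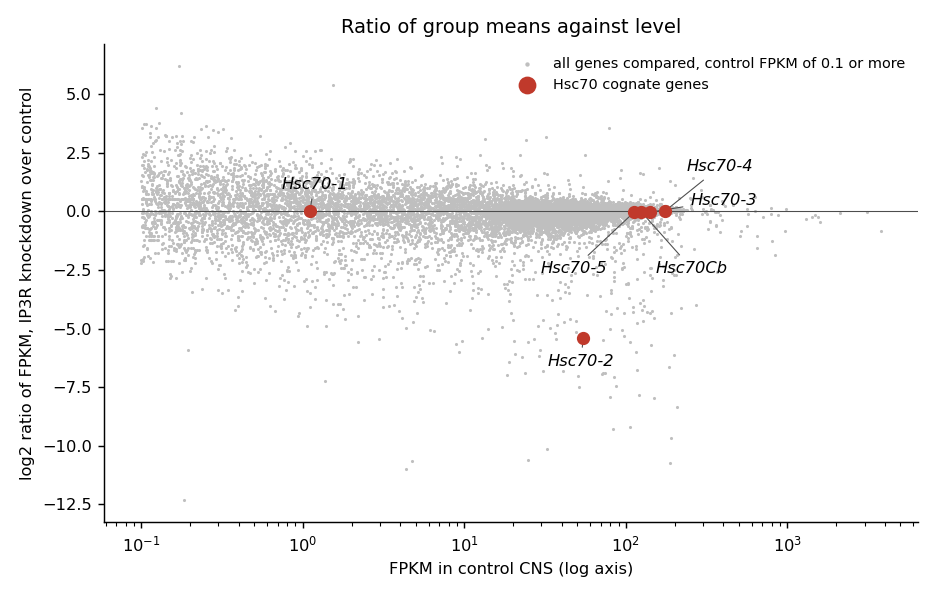
Log2 ratio of FPKM in IP3R knockdown over control CNS (vertical) against control FPKM on a log axis (horizontal), for all genes compared with a control FPKM of at least 0.1 (grey) and the 6 Hsc70 cognate genes (red). Hsc70-2 lies at -5.38, and the other 5 lie between -0.03 and 0.04. Hsc70-1 lies at low FPKM, where the cloud of all genes is wide, and the 4 abundant genes lie at high FPKM, where it is narrow.

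Hsc70-2 has 2 annotated exons with 2174 exonic bases on chromosome arm 3R, from 13044759 to 13047388 on the plus strand (dm6). The knockdown libraries held 34 and 27 reads of this gene, and the control libraries held 1349, 1239 and 1172. After division by the size factors these were 29.6 and 31.7 in knockdown CNS, against 1203, 1122 and 1419 in control CNS. The libraries of a group lay close together, and the lowest control value was 35.4 times the highest knockdown value. The means were 30.6 ± 1.47 (SD, n = 2) in knockdown and 1248 ± 153 (SD, n = 3) in control CNS, a ratio of 40.7-fold between the groups. The 61 reads of both knockdown libraries together have an exact 95% Poisson interval of 46.7 to 78.4, which covers counting error only. The gene was therefore still detected in knockdown CNS. In bulk tissue, fewer cells of a type and less RNA per cell cannot be told apart. Within libraries of like depth the log2 ratio of normalized reads was -5.48 for knockdown b against control c and -5.30 for knockdown a against control a and b. Of the 6 members, Hsc70-2 alone had groups that did not overlap, and over all genes with solved reads both knockdown libraries lay below all 3 control libraries in 21% and above them in 19.4%.

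Hsc70-4, the cytosolic chaperone, had the highest FPKM of the 6 genes in both groups. It has 8 annotated exons on 3R, from 15242687 to 15246614 on the plus strand. It reached 177 FPKM in knockdown and 175 FPKM in control CNS, rank 281 and rank 249 among the genes compared. The reads were 4418 and 4370 in the knockdown libraries, against 4419, 4400 and 4331 in the control libraries, so all 5 libraries held nearly the same number whatever their depth. After division by the size factors, which differ with depth, the values were 3846 and 5127 in knockdown CNS and 3942, 3983 and 5242 in control CNS. Those of the shallower libraries, knockdown b and control c, were the highest of their groups, and the groups overlapped. The log2 FPKM ratio was 0.02.

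Hsc70-3, which encodes BiP and binds unfolded proteins in the ER lumen, lies on the X chromosome from 11801696 to 11807117 on the minus strand. It had 139 FPKM in knockdown and 142 FPKM in control CNS, with a log2 ratio of -0.03. Its normalized reads were 4192 and 5075 in knockdown CNS, against 4378, 4373 and 5374 in control CNS. The groups overlapped, and again knockdown b and control c were the highest of their groups. No accumulation or loss of BiP mRNA beyond the spread between libraries was seen, the spread being 624 normalized reads in knockdown (SD, n = 2) and 577 in control (SD, n = 3). This spread includes the difference between deeper and shallower libraries.

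Hsc70-5, the mitochondrial family member, which imports and folds matrix proteins, is on arm 2R. It had 111 FPKM in knockdown and 113 FPKM in control CNS. The normalized reads were 3327 and 4043 in knockdown CNS and 3523, 3477 and 4187 in control CNS, with overlapping groups and a log2 FPKM ratio of -0.02. Hsc70Cb, the Hsp110-type exchange factor listed as Hsp110 in the newer annotation, lies on 3L from 14037019 to 14043686 on the plus strand. It had 123 FPKM in knockdown and 125 FPKM in control CNS. Its normalized reads were 4162 and 5091 in knockdown CNS and 4396, 4396 and 5206 in control CNS. Here too the groups overlapped, and the log2 FPKM ratio was -0.02.

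Hsc70-1 was at the low end of the family, with 1.14 FPKM in knockdown and 1.11 FPKM in control CNS. It lies on 3L from 13974061 to 13977761 on the plus strand. The knockdown libraries held 24 and 28 reads and the control libraries held 27, 36 and 25. Normalized, these were 20.9 and 32.8 in knockdown CNS, against 24.1, 32.6 and 30.3 in control CNS. The knockdown libraries enclosed all of the control libraries, so no difference was detectable at this depth. The ratio of normalized reads was 0.927 with all libraries and 0.722 without knockdown b, and these counts of few reads allow no firmer statement.

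**Figure D2:**
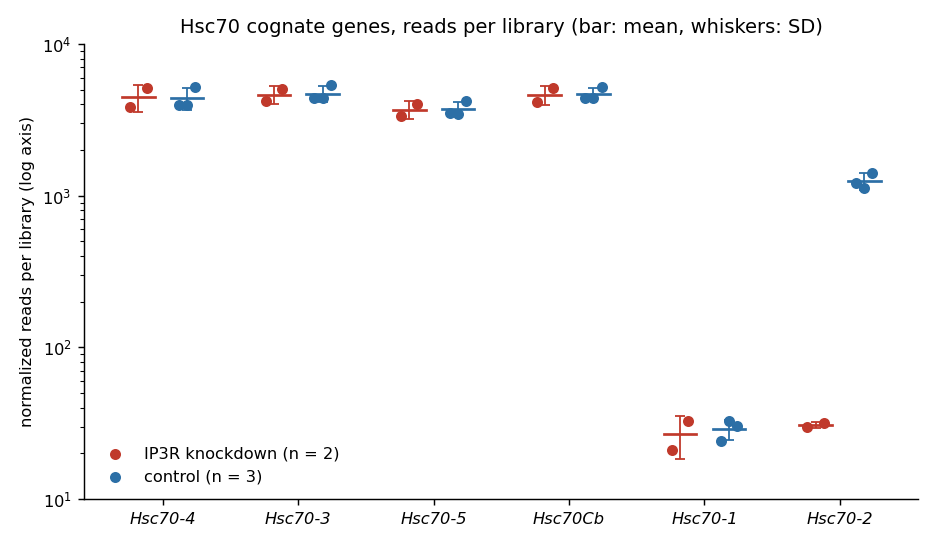
Normalized reads per library on a log axis for the 6 Hsc70 cognate genes, with IP3R knockdown libraries (red, n = 2) left of control libraries (blue, n = 3), means as bars and SD as whiskers. Hsc70-2 lies at 29.6 and 31.7 in knockdown and at 1122 to 1419 in control CNS, and the groups of the other 5 genes overlap.

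The order of the 6 genes by FPKM was Hsc70-4, Hsc70-3, Hsc70Cb, Hsc70-5, Hsc70-2 and Hsc70-1 in both groups. In reads per exon base Hsc70-5 stood above Hsc70Cb in all 5 libraries, with 1.31 and 1.18 against 1.27 and 1.16 in the knockdown libraries, so the order of these neighbours depends on the measure. Their summed FPKM was 552 in knockdown and 609 in control CNS. Without Hsc70-2 the sums were 551 in knockdown and 555 in control CNS. Hsc70-2 made up 0.237% of the summed FPKM of the family in knockdown CNS and 8.95% in control CNS. Hsc70-4 made up 32.1% in knockdown and 28.7% in control CNS. The level of Hsc70-2 was 1.15 times that of Hsc70-1 in knockdown CNS and 49.3 times that of Hsc70-1 in control CNS. Its FPKM in knockdown CNS was thus near that of the other scarce cognate gene, whereas in control CNS it stood between Hsc70-1 and the abundant members. Hsc70-4, Hsc70-3, Hsc70Cb and Hsc70-5 were closer to each other, with steps in FPKM of 1.28, 1.13 and 1.11 times in knockdown and 1.23, 1.14 and 1.11 times in control CNS. All of these levels come from reads kept after the removal of duplicates described next, which limits genes dense in reads the most. Its part in the order, the shares and the steps was not tested.

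The near-constant reads of Hsc70-4, and the reads of Hsc70-3, Hsc70-5 and Hsc70Cb, have to be read beside the removal of duplicate reads by the authors. After this removal a gene can keep only a limited number of reads per base of exon. Hsc70-4 held 1.61 to 1.63 reads per exon base in the knockdown libraries and 1.59 to 1.63 in the control libraries, more than 99.1% of the 10952 genes with at least 100 reads over all libraries and a known exon length. For Hsc70-3, Hsc70-5 and Hsc70Cb the range was 1.16 to 1.34 in the knockdown libraries and 1.15 to 1.37 in the control libraries. Hsc70-2 held 0.0124 to 0.0156 in the knockdown libraries and 0.539 to 0.621 in the control libraries. Of these genes 99% stayed below 1.59 reads per exon base, and their median was 0.413.

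How far reads followed depth could be measured within a group, where both libraries have the same genotype. In genes with up to 0.1 reads per exon base, knockdown b held a median of 0.618 times the reads of knockdown a, and control c held 0.609 times the reads of control a. In genes with 1.2 to 1.4 reads per exon base, the interval of Hsc70-3, Hsc70-5 and Hsc70Cb, these ratios were 0.884 in knockdown and 0.892 in control CNS. In genes with 1.6 to 1.8, the interval of Hsc70-4, they were 0.939 in knockdown and 0.953 in control CNS. Hsc70-4 itself had 0.989 in knockdown and 0.980 in control CNS, and Hsc70-2 had 0.794 in knockdown and 0.869 in control CNS. The size factors gave 0.742 for the knockdown pair and 0.737 for the control pair. Reads of the abundant genes, and those of Hsc70-2 in the control libraries, thus differed less than depth did. How far this also narrowed the ratios of these genes between knockdown and control was not tested.

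The share of genes past the threshold varied with read density as well. It was 29.9% lower and 25.9% higher at up to 0.1 reads per exon base, and 18.3% lower and 10.2% higher between 0.2 and 0.4, the interval of the mean of Hsc70-2. In the interval of Hsc70-3, Hsc70-5 and Hsc70Cb, 5 of 345 genes were lower and 1 was higher. In that of Hsc70-4, 0 of 70 genes passed in either direction, and 90% of their log2 FPKM ratios lay between -0.02 and 0.10. A ratio near 1 for Hsc70-4, Hsc70-3, Hsc70-5 and Hsc70Cb was therefore what nearly all genes of their read density had, and a moderate difference in their mRNA may have been too small to detect.

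**Figure D3:**
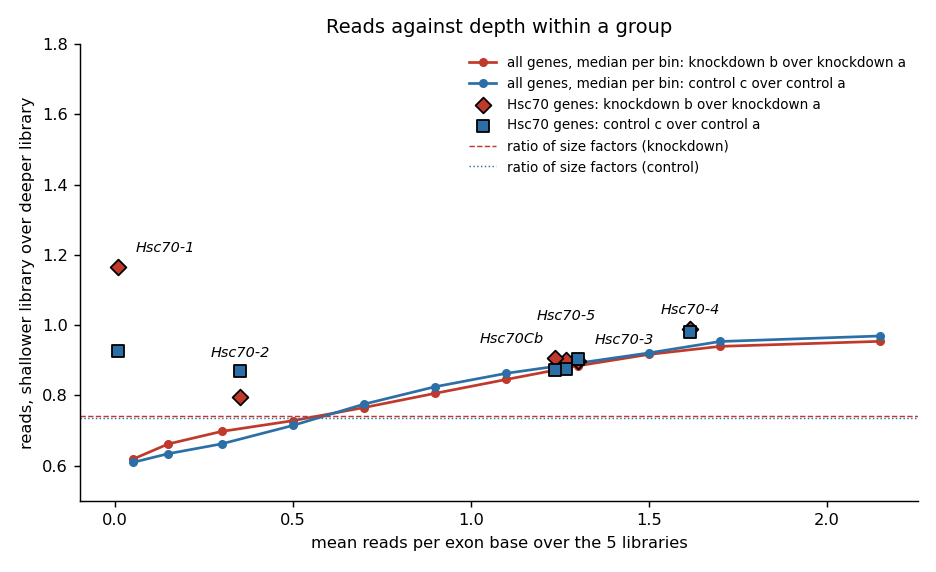
Reads in the shallower over reads in the deeper library of a group (vertical) against mean reads per exon base over the 5 libraries (horizontal). Lines give medians of all genes per interval for knockdown b over a (red) and control c over a (blue), diamonds and squares give the Hsc70 genes, and the level lines give the ratios of size factors, 0.742 in knockdown and 0.737 in control. Medians run from about 0.6 at the lowest to 0.954 and 0.969 at the highest read density.

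Some of the heat-inducible relatives of the family were higher in knockdown CNS. Of 7 inducible Hsp70 genes compared, 4 were higher and 0 were lower, beside 16.9% and 16.7% of all genes, with a median log2 FPKM ratio of 0.44, beside 0.04 over all genes. Hsp70Bb had 386 and 455 normalized reads in knockdown CNS, against 234, 200 and 171 in control CNS. Hsp70Ba, Hsp70Bbb and Hsp70Bc were the other 3, with log2 FPKM ratios of 0.70, 0.54 and 0.44. In all 4 genes both knockdown libraries lay above all control libraries, beside 19.4% of all genes. These copies are nearly identical in sequence, so the share of reads given to each is uncertain and the 4 genes are not separate measurements. Hsp70Aa and Hsp70Ab were given the same reads in every library, 332 and 220 in knockdown and 336, 296 and 158 in control CNS, while their FPKM in control CNS was 0.0447 for Hsp70Aa and 9.98 for Hsp70Ab. Hsp68, a related inducible gene, had a log2 FPKM ratio of -0.08. The difference between the inducible and the cognate genes was not tested.

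Among the partners of the Hsp70 family, the J-domain list held 18 compared genes, of which 3 were higher and 0 were lower. A share of this size is near that of all genes, 16.9% higher, so nothing is read from the count. The 3 were CG2887, Hsc20 and CG7130, with log2 FPKM ratios of 0.64, 0.62 and 0.43. Hsc20 encodes the J-domain protein that works with the mitochondrial family member in iron-sulfur cluster formation, and it had 279 and 196 normalized reads in knockdown and 152, 158 and 155 in control CNS. CG2887 had few reads, 30 and 14 in knockdown and 16, 18 and 9 in control CNS, and its ratio of normalized reads was 1.18 without knockdown a. Of the 4 exchange factors other than Hsc70Cb, only CG10973 passed, at a log2 FPKM ratio of 0.35, and its ratio of normalized reads was 1.23 without knockdown a. In the Hsp90 list 1 of 9 genes was higher and 0 were lower, beside 16.9% and 16.7% of all genes. Several genes of this list were dense in reads, with 1.82 reads per exon base for FKBP59 and 1.62 for Hsp83. Few genes of such density passed the threshold, so a difference in them may have been too small to detect. The higher gene was CHIP, the ubiquitin ligase that binds Hsp70 and Hsp90. It had 964 and 931 normalized reads in knockdown, against 628, 694 and 703 in control CNS. None of the 8 subunits of the CCT chaperonin passed, and their log2 FPKM ratios were all between 0.01 and 0.04. These genes held 1.56 to 1.67 reads per exon base, as dense as Hsc70-4, where 1 of 188 genes (1.4 to 1.6) and 0 of 70 genes (1.6 to 1.8) passed, so a difference in them may also have been too small to detect. Cct5, the most abundant of them, had 2902 and 3712 normalized reads in knockdown and 2975, 2948 and 3762 in control CNS.

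Around BiP, 21 genes of ER folding and quality control were compared. Of these 1 was higher and 0 were lower, beside 16.9% and 16.7% of all genes. Atf6, a sensor of ER stress that BiP holds inactive, was higher, with 499.6 and 538 normalized reads in knockdown and 351, 413 and 395 in control CNS. The list had a median log2 FPKM ratio of 0.01. Several of its genes were denser in reads than BiP, with 1.78 reads per exon base for ERp60, 1.69 for Gp93 and 1.41 for Xbp1. Few genes of such density passed the threshold, so a difference in them may have been too small to detect. The other sensors, Ire1 and PEK, had log2 FPKM ratios of -0.24 and -0.19, inside the threshold. In both of them the knockdown libraries lay below all 3 control libraries. This held for 4 of the 21 genes, beside 21% of all genes, and the reverse held for 2, beside 19.4%. Xbp1, the target of Ire1, had a log2 FPKM ratio of 0.01. Of the 11 compared genes of mitochondrial import and folding, 1 was lower and 1 was higher, beside 16.7% and 16.9% of all genes. Both were at the limit of detection. Hsp60C had 0 and 1 reads in knockdown and 2, 4 and 1 in control CNS, and CG9920 had 3 and 3 in knockdown and 0, 2 and 1 in control CNS. The median of the list was 0.01.

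In the clathrin coat cycle, Hsc70-4 and the J-domain protein auxilin (aux) uncoat vesicles. Of the 13 genes compared, 2 were lower and 0 were higher, beside 16.7% and 16.9% of all genes. The share of lower genes is near that of all genes, so nothing is read from this count. The median log2 FPKM ratio was -0.15. The lower genes were stnA and Synj, which encode endocytic proteins of the synapse. For stnA the normalized reads were 3802 and 4437 in knockdown, against 6134, 5800 and 5568 in control CNS. Synj had 1616 and 1760 in knockdown, against 2487, 2299 and 2106 in control CNS. Both ratios lie near the threshold, and without knockdown a they were 0.760 for stnA and 0.766 for Synj. In 9 of the 13 genes, aux among them, both knockdown libraries lay below all control libraries, beside 21% of all genes. The neuronal marker list was lower as well, with summed normalized reads of 24184 to 28056 in knockdown and 34987 to 41025 in control CNS, and its part in the values of the clathrin list was not tested. Of 9 small heat shock genes, 3 were higher and 1 was lower, beside 16.9% and 16.7% of all genes. The higher genes were Hsp67Bc, Hsp67Bb and Hsp22, with log2 FPKM ratios of 0.53, 0.49 and 0.44. The remaining call in this list was l(2)efl, which was lower at -0.52. It had 870 and 326 normalized reads in knockdown and 862, 798 and 898 in control CNS, so knockdown b alone was low, and the ratio was 1.02 without it.

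**Figure D4:**
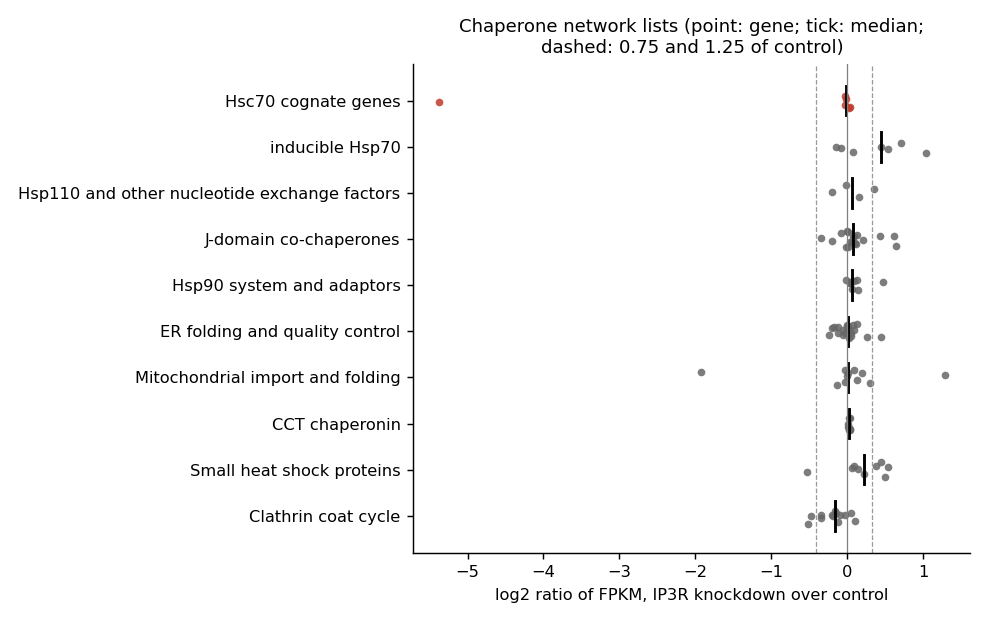
Log2 ratio of FPKM in IP3R knockdown over control CNS for each gene of the Hsc70 cognate family (red) and of 9 lists of the chaperone network (grey), with the median of each list as a tick and dashed lines at 25% below and 25% above control. Hsc70-2 stands alone at -5.38, and the inducible Hsp70 genes have the highest median, 0.44.

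The genes whose levels were most like those of Hsc70-2 were sought among all genes compared, by the distance between points given by the log2 FPKM of the knockdown and the control group mean. The 5 nearest were CG34273, CG8708, CG13705, CG13170 and PH4alphaSG1, at distances of 0.105 to 0.541. PH4alphaSG1 encodes a prolyl hydroxylase subunit named for its expression in the salivary gland. Between libraries their patterns differed. CG8708 had 37 and 15 reads in knockdown and 881, 842 and 870 in control CNS, and CG34273 had 17 and 6 in knockdown and 230, 195 and 124 in control CNS. CG13705 had 53 and 3 reads in knockdown, and PH4alphaSG1 had 60 and 2, so that nearly all knockdown reads of both came from knockdown a. CG13170 had 105, 100 and 309 reads in control CNS, with control c above the others. Hsc70-2, in contrast, had like normalized reads in all libraries of a group.

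On chromosome 3R the genes on both sides of Hsc70-2 were compared as well. CG31157, the next gene downstream, from 13047731 to 13049294 on the same strand, had 3 and 1 reads in knockdown, against 252, 387 and 218 in control CNS. The pattern of Hsc70-2 was thus shared by its nearest downstream neighbour. CG11670, the farther of the upstream genes, had 943 and 913 normalized reads in knockdown and 861, 807 and 963 in control CNS. CG45122, the nearer upstream gene, had at most 5 reads in any library. CG7966, beyond CG31157 on the other strand, had 1339 and 1097 normalized reads in knockdown and 1319, 1404 and 1803 in control CNS, with overlapping groups. No annotated gene overlaps any of the 6 Hsc70 cognate genes, so no annotated antisense or nested gene shares their reads.

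Markers of several tissues other than the CNS, the salivary gland and the cuticle among them, were lower in knockdown CNS together with Hsc70-2. Over all genes 16.7% were lower and 16.9% were higher, and the counts of each marker list stand beside these shares. Of 13 salivary gland genes all had reads in control CNS, and 2, Sgs5 and Eig71Ee, were at 0 in both knockdown libraries. Of 11 compared, 10 were lower and 0 were higher, and the summed normalized reads of the list were 1208 to 1468 in knockdown and 5308 to 6720 in control CNS. Within the list, patterns between the control libraries differed. The ng genes, which encode small proteins of the salivary gland early in the third instar, were high in all 3 control libraries, as Hsc70-2 was. ng1 had 2 and 0 reads in knockdown and 738, 729 and 774 in control CNS, and ng3 had 5 and 2 in knockdown and 996, 965 and 1035 in control CNS. Sgs3, a glue protein gene, had 5 and 5 reads in knockdown and 614, 462 and 1 in control CNS, and Sgs4 had 6 and 1 in knockdown and 268, 202 and 21 in control CNS. Control c was thus far below control a and b for these glue genes, and for Hsc70-2 it was not. The transcription factor genes fkh, sage and CrebA had log2 FPKM ratios between -1.32 and -0.98. Of these, fkh and CrebA act in the salivary gland but also elsewhere. Of the 12 genes of larval cuticle and epidermis 9 were lower, with summed normalized reads of 917 in knockdown a and 240.5 in knockdown b, against 4510 to 5818 in control CNS. No gene of this list was at 0 in all libraries of a group. The part of salivary gland or cuticle tissue in the values of Hsc70-2 was not tested. In the lists of body wall muscle, fat body and hemocytes 11 of 12, 6 of 9 and 6 of 9 genes were lower. As in the cuticle list, knockdown b was far below knockdown a in the summed reads of each. The lower genes of the fat body list include larp, which did not share this pattern, with 2713 and 3047 normalized reads in knockdown a and b. The muscle list summed to 21605 in knockdown a and 11623 in knockdown b, against 30570 to 33782 in control CNS, whereas Hsc70-2 had 29.6 and 31.7. Of 14 compared genes of testis and spermatocytes 7 were higher and 1 was lower, with summed normalized reads of 1762 to 1812 in knockdown and 1438 to 1817 in control CNS, and Mst84Da and Mst84Db were at 0 in all libraries. Some of the higher genes were at the limit of detection, such as djl with 4 and 8 reads in knockdown and 0, 2 and 2 in control CNS. Others were not, such as bam with 315 and 373 in knockdown and 222, 213 and 167 in control CNS. In the remaining marker lists, 1 of 6 neuroblast genes was lower and 1 higher, 3 of 10 midgut genes were lower and 3 higher, 2 of 6 tracheal and 1 of 8 imaginal disc genes were lower, and 2 of 8 ring gland genes were higher.

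**Figure D5:**
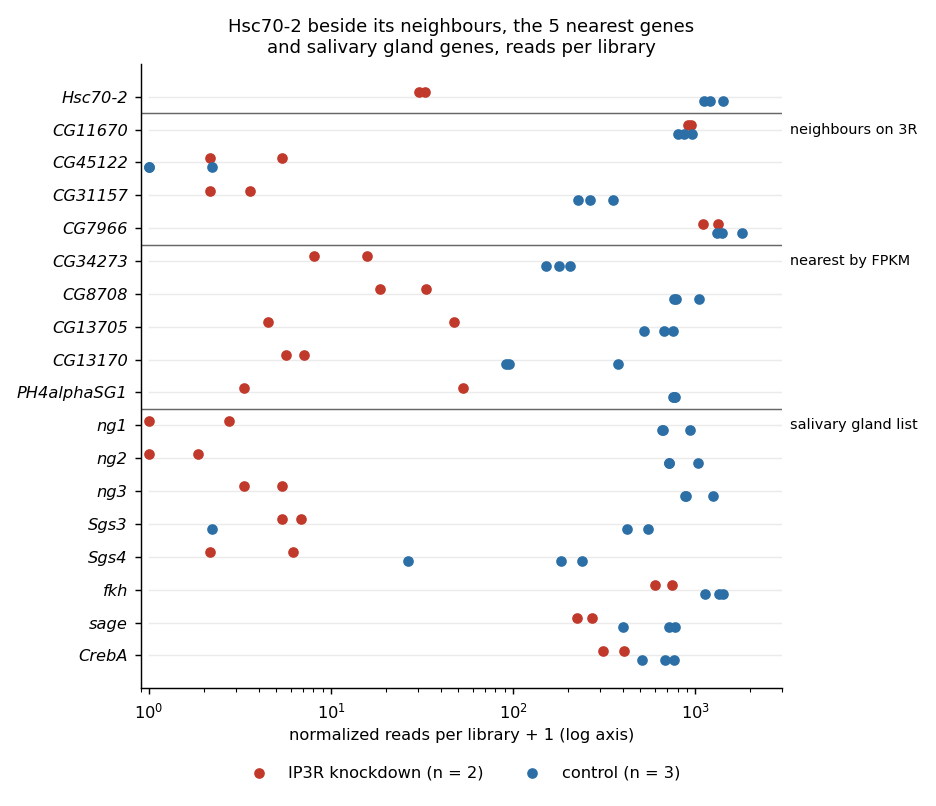
Normalized reads per library, plus 1, on a log axis for Hsc70-2, its neighbours on 3R, the 5 genes nearest to it by FPKM and 8 genes of the salivary gland list, with IP3R knockdown (red, n = 2) above control (blue, n = 3) in each line. CG31157 and the ng genes share the wide gap between groups of Hsc70-2, whereas 1 control library of Sgs3 lies beside the knockdown libraries.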

How the data were processed

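RNA-seq reads were aligned by the authors to dm6 with TopHat2 2.0.11, and PCR duplicates were removed with Samtools. The deposited Cuffdiff 2.2.0 table gives the FPKM of each group. The DESeq table deposited by the authors gives mean normalized counts per group, a signal made from gene counts by GenomicRanges and size factors. The edgeR table deposited by the authors gives an average log2 CPM over the 5 libraries. Fold changes, test statistics and p-values in these tables are the authors' own comparisons and were not used. The number of deposited columns with a value per library was 0.

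Each group mean is a sum of whole reads divided by size factors. Steps of the lowest means gave the size factors, and whole reads per library that met both group means, and for abundant genes also the deposited log2 CPM (prior count 2), were solved for 16678 of 16680 genes. In simulated data 6000 of 6000 genes were solved and 0 wrongly. The control means are sums of 3 libraries and the knockdown means of 2. Libraries solved this way carry no replicate number.

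Genes were joined by symbol. Exon lengths and positions came from the Ensembl annotation on dm6 coordinates, which matched 99.0% of the compared genes, older symbols included. Ratios are knockdown over control group means, without a pseudocount. Genes past the threshold were counted at a change of at least 25% in both tables. Members and lists were chosen with earlier results of these data known. Named genes were the 6 members, up to 4 genes past the threshold from each list (otherwise the gene with the highest control FPKM), the 5 genes nearest to Hsc70-2, its 2 neighbours on each side, Itp-r83A, Dcr-2 and w. Other list genes were named after their values were seen. Tables were handled with pandas 2.3.3 and NumPy 2.4.6 in Python 3.11.15, intervals came from SciPy 1.17.1, and figures were drawn in matplotlib 3.10.9.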

Additional observations from a re-analysis of the deposited data

How the results depend on the processing

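No paired analysis was possible because the solved libraries carry no replicate number. The log2 ratio of Hsc70-2 was -5.38 from FPKM and -5.35 from mean normalized counts. Adding 1 FPKM to both group means moved it to -4.59, because its knockdown FPKM is itself near 1, and adding 0.1 FPKM gave -5.28. Subtracting the median log2 ratio of all genes (0.04) gave -5.42. Without each library in turn the ratio of normalized reads of Hsc70-2 stayed between -5.42 and -5.25 on the log2 scale, that of Hsc70-1 between -0.47 and 0.18, and that of Hsc70-4 between -0.19 and 0.22. The comparisons within libraries of like depth, and of reads not divided by size factors, were chosen after seeing the data. In unscaled reads Hsc70-2 was at -5.36, and the other 5 members were between -0.17 and 0.00. At a 2-fold threshold, in either table, at an FPKM of at least 1 in either group and after centring, the count of members past the threshold remained 1. The share of Hsc70-2 in the summed control level of the family was 8.95% in FPKM and 9.51% in normalized counts per kilobase of exon. Both measures use the reads kept after the removal of duplicates. Depth limits Hsc70-1, with at most 36 reads per library, and the ratios of the 4 abundant members come from read densities at which few genes passed the threshold.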
